A study of Mus musculus with 23 samples.

Results

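Mycbpap, Pdxk, Ahcy, Rbm24, Lrrc43, Vwa3a, Mzf1, Igsf11 and Pdia2 are 9 of the 35322 genes measured by RNA-Seq in lung of offspring of PM2.5-exposed and Sham dams. They were chosen because their change after OVA challenge differed between the maternal groups in these same libraries, by a small p of the interaction or by unlike fold changes, and all 9 were among the 16795 genes tested. Their fold changes after challenge, the difference of those fold changes and the contrasts that make it up are therefore given as a description without a test. In the order of the interaction p over all genes tested, the members stood at ranks 1 (Mycbpap), 3 (Ahcy), 5 (Rbm24), 7 (Mzf1), 8 (Lrrc43), 10 (Pdia2), 11 (Igsf11), 14 (Pdxk) and 97 (Vwa3a), so that genes outside the group lay between them.

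The lungs came from Balb/c female offspring at 13 weeks of age. Dams received PM2.5, fine airborne particulate matter, or saline through the nose before mating, in gestation and until weaning. Sham (n = 7) and PM (n = 7) offspring of saline- and PM2.5-exposed dams had a control challenge, which the labels name as PBS. Sham-OVA (n = 5) and PM-OVA (n = 4) offspring were sensitised to ovalbumin (OVA) with an aluminium adjuvant and then challenged with it by nebuliser, a model of allergic airway disease (AAD). The labels do not tie offspring to dams or litters, so libraries of 1 group may share a litter and the spread between them may understate that between litters. Values are in RPM, reads on a gene scaled to the size of the library, which are not corrected for gene length and are compared here between libraries, not between genes.

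Libraries held from 2298645 reads on genes (Sham-OVA replicate 3) to 17393579 (PM replicate 3), and 1 read was worth 0.311 RPM in the first of these, 0.133 and 0.182 RPM in PM-OVA replicates 3 and 4, and at most 0.0688 RPM in saline libraries. Sham replicate 1 went against its label: its Xist level, which marks the silenced X chromosome of females, was 0.289 RPM, and it had 54.0 RPM of the Y-linked Eif2s3y, whereas the other 22 libraries had at least 174.3 RPM of Xist and were listed at 0 for Eif2s3y. Leaving it out moved the difference of the fold changes of no member by more than 0.065 on the log2 scale. Gapdh, which every cell uses, was listed at 0 in 4 of the 9 OVA libraries, so a value of 0 is given below as listed and not as absence. The 8 defining markers of multiciliated airway cells, among them Foxj1 and Tekt1, were above 0 in all 23 libraries.

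The members have unlike known roles. Multiciliated cells line the airway and beat mucus upwards with motile cilia, whose axoneme is built of tubulin, dynein arms and many associated proteins. Pdxk makes the active form of vitamin B6, a cofactor of many enzymes of amino acid metabolism, and Ahcy removes the product that inhibits methyl transfer. Rbm24 is an RNA-binding regulator of splicing known from heart and skeletal muscle, Mzf1 a SCAN domain zinc finger transcription factor, Igsf11 an adhesion molecule of the immunoglobulin superfamily that binds the inhibitory receptor VISTA, and Pdia2 a protein disulphide isomerase of the endoplasmic reticulum. Mycbpap encodes a partner of the Myc-binding protein, Lrrc43 a protein with leucine-rich repeats, and Vwa3a one with a von Willebrand factor A domain.

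In GRCm38 (GENCODE M21), Mycbpap lies at chr11:94501347-94521742 on the minus strand, Pdxk at chr10:78436744-78464975 (minus), Ahcy at chr2:155059310-155074497 (minus), Rbm24 at chr13:46418434-46431095 (plus), Lrrc43 at chr5:123489305-123508205 (plus), Vwa3a at chr7:120739318-120805742 (plus), Mzf1 at chr7:13042303-13054764 (minus), Igsf11 at chr16:38892671-39027159 (plus) and Pdia2 at chr17:26195999-26199087 (minus). All 9 are protein-coding. Genes on the opposite strand overlap Pdxk (4921516A02Rik, over 2104 bases), Ahcy (Gm45609), Lrrc43 (Il31) and Vwa3a (Gm44661), and the strand setting of the counting is not given in the sources used here, so reads of such pairs may not be told apart. Those partners were low, with at most 0.351 RPM in any library. Ahcy is uncertain for another reason: 2083 of the 2543 bases of its longest transcript matched the gene Gm4737 at 99.7% identity, and Gm4737 was listed at 0 in all 23 libraries. The pseudogenes Gm9826 (99.2% over 1299 bases) and Gm5638 (94.5% over 1128 bases) matched it too and were not analysed here. Whether reads that match several places were dropped or shared out is not given, so the Ahcy values may hold only part of its reads, and Gapdh reached at most 3.92 RPM in any library. The part of such reads in the Ahcy values was not tested.

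Promoters are shown for 4 members because Vwa3a and Igsf11 were the pair whose levels moved together most closely within groups, and because Lrrc43 and Mzf1 hold the letters GTTGCC closest to the start. These letters are the half-site of RFX transcription factors, which are known regulators of ciliary genes. Igsf11 holds them too, as does Pdxk, which is not shown, 128 bases before its start. The sequences (RefSeq, GRCm38.p6) run 5′ to 3′ on the strand of the gene from 250 bases before its start to 50 after it, at chr7:120739307-120739606 (plus strand) for Vwa3a, chr16:38902095-38902394 (plus) for Igsf11, chr5:123489075-123489374 (plus) for Lrrc43 and chr7:13054715-13055014 (minus) for the first of the promoters listed for Mzf1. The RefSeq starts of Vwa3a, Igsf11 and Lrrc43 lie inside the spans that GENCODE gives for these genes, as do those of Mycbpap and Pdxk. The window of Igsf11 lies wholly inside its span, and those of Vwa3a and Mycbpap almost wholly, so they hold little or nothing before the GENCODE start. Capitals mark GTTGCC.
Vwa3a: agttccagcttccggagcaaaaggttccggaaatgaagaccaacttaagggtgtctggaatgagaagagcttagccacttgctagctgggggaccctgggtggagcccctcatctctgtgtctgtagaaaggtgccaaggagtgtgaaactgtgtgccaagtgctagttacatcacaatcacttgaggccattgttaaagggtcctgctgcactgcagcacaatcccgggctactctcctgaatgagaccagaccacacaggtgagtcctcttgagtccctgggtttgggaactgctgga
Igsf11: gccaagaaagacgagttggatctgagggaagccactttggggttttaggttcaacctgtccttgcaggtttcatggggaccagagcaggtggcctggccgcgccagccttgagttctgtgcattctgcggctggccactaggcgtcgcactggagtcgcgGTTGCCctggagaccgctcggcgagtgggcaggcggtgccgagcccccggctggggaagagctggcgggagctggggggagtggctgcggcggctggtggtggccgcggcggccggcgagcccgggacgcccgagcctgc
Lrrc43: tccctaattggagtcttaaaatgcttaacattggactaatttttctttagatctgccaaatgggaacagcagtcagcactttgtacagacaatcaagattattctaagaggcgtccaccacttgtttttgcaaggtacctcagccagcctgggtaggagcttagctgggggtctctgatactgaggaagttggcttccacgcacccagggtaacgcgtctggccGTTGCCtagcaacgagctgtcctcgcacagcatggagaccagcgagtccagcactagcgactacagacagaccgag
Mzf1: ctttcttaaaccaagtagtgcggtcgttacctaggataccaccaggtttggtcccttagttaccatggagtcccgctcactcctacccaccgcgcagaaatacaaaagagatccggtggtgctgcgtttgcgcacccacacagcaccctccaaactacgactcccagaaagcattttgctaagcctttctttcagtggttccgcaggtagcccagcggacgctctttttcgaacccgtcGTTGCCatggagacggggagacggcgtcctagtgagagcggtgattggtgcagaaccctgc
Promoters were found for all 9 members. GTTGCC or its reverse complement GGCAAC was present in those of 5 members (Pdxk, Rbm24, Lrrc43, Mzf1 and Igsf11), and in 12.5% of all 32851 promoters. In Lrrc43 the match began 26 bases before the start, in the first Mzf1 promoter 11 bases and in Igsf11 90 bases. The forkhead letters TGTTTAC or GTAAACA, those of the family of Foxj1, were in none of the members' promoters and in 3.65% of all promoters. A match is a description of these letters and not a site, and no match says only that the letters are not in this window.

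**Figure D1:**
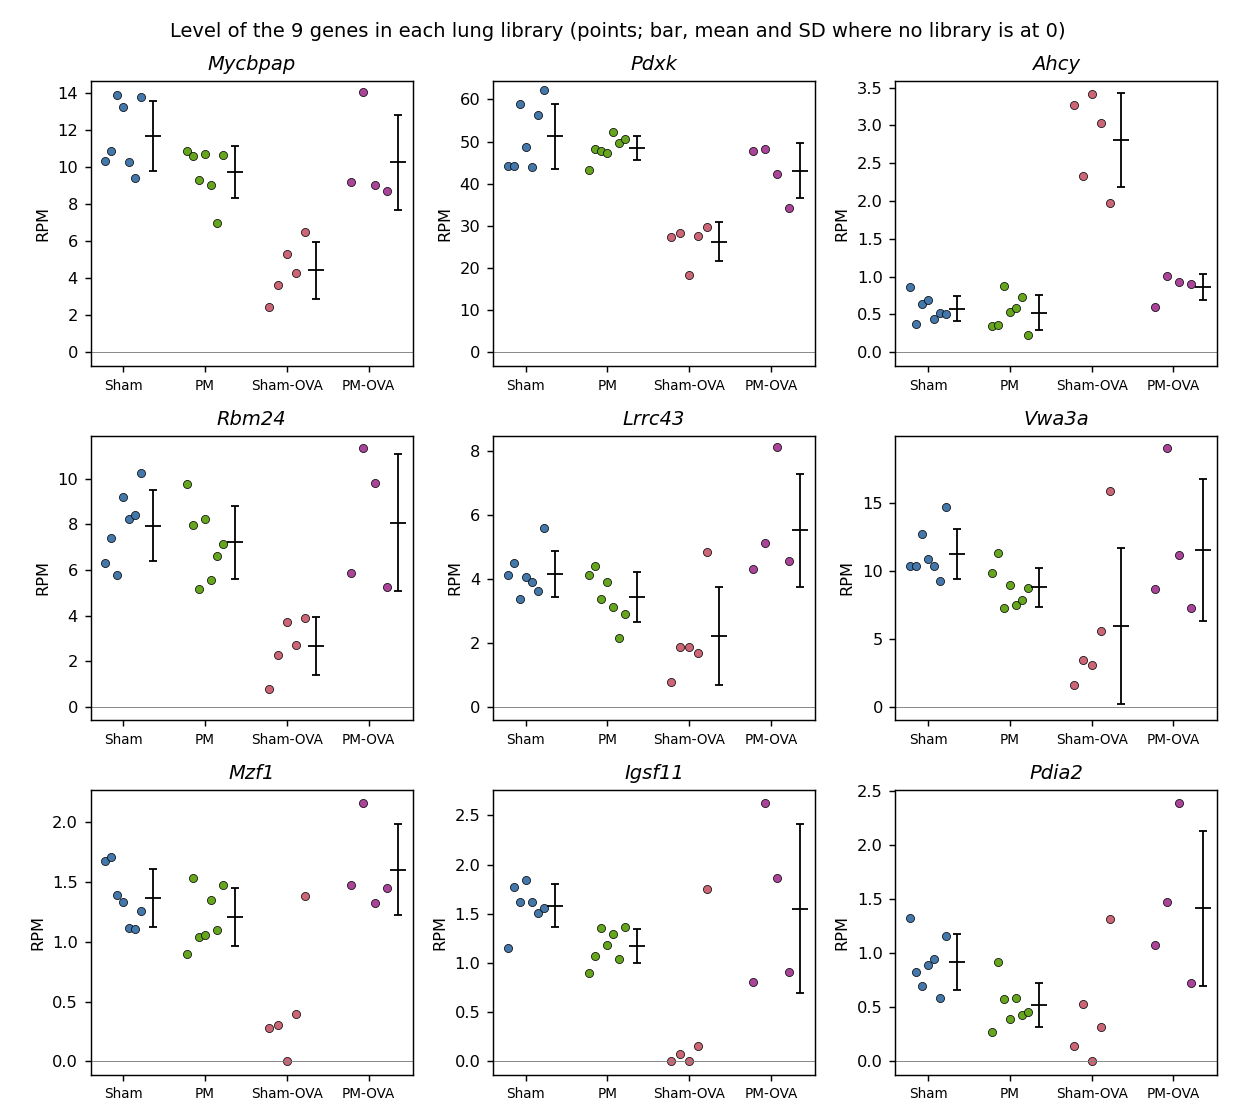
RPM of each of the 9 genes (panels, each with its own axis) in the 7 Sham, 7 PM, 5 Sham-OVA and 4 PM-OVA libraries; each point is a library and bars give the mean and SD, left out where a library was listed at 0. Ahcy is the gene that is high in Sham-OVA, at 1.97 to 3.42 RPM, and the lone high Sham-OVA points of Lrrc43, Vwa3a, Mzf1, Igsf11 and Pdia2 are all replicate 5.

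Mycbpap was lower in every Sham-OVA library than in every Sham library and lay close to its saline level in PM-OVA. It ranged from 9.41 to 13.9 RPM in Sham (median 10.9) and from 6.97 to 10.9 RPM in PM (median 10.6). Sham-OVA replicates 1 to 5 had 2.43, 3.61, 5.28, 4.30 and 6.50 RPM, and PM-OVA replicates 1 to 4 had 9.20, 14.1, 9.03 and 8.72 RPM. PM-OVA did not overlap Sham-OVA and overlapped PM. OVA challenge gave a log2 fold change of -1.35 ± 0.22 (SE) in Sham offspring, against 0.06 ± 0.19 in PM offspring, on the log2(RPM + 0.5) scale, which understates the change of low genes, and the difference was 1.41 ± 0.28. The sign in PM offspring was not stable, since it was -0.10 without PM-OVA replicate 2, the highest library, and -0.015 without PM replicate 6.

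Rbm24 was likewise lowest in Sham-OVA. It ranged from 5.79 to 10.2 RPM in Sham (median 8.25) and from 5.14 to 9.77 RPM in PM (median 7.11). Sham-OVA libraries had 0.764, 2.26, 3.73, 2.71 and 3.87 RPM, and PM-OVA libraries 5.85, 11.4, 9.82 and 5.27 RPM. All 5 Sham-OVA libraries lay below every Sham library and below all 4 PM-OVA libraries, whereas PM-OVA overlapped PM. The log2 fold change of -1.52 ± 0.29 in Sham offspring stood against 0.11 ± 0.24 in PM offspring, a difference of 1.63 ± 0.39, and the value in PM offspring was -0.064 without PM-OVA replicate 2.

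Pdxk, the most abundant member by read number, had the smallest difference of the 9. It ranged from 43.9 to 62.2 RPM in Sham (median 48.8) and from 43.3 to 52.2 RPM in PM (median 48.2). Sham-OVA libraries had 27.4, 28.4, 18.3, 27.5 and 29.8 RPM, and PM-OVA libraries 47.8, 48.1, 42.4 and 34.1 RPM. Sham-OVA overlapped neither Sham nor PM-OVA, and the lowest value was that of the shallowest library, in which it rested on 59 reads. The log2 fold change of -0.96 ± 0.16 in Sham offspring stood against -0.18 ± 0.13 in PM offspring, the latter 0.18 with median-of-ratios scaling and 0.21 with quantile normalisation, and the difference was 0.78 ± 0.20.

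Ahcy was the member with the opposite direction. It ranged from 0.380 to 0.866 RPM in Sham (median 0.523) and from 0.228 to 0.883 RPM in PM (median 0.527), which rested on 4 to 17 reads a library. Sham-OVA libraries had 3.27, 2.33, 3.42, 3.03 and 1.97 RPM, and PM-OVA libraries 0.605, 1.00, 0.929 and 0.908 RPM. Every Sham-OVA library was above every Sham and every PM-OVA library, and 3 of the 4 PM-OVA libraries were above all PM libraries. The log2 fold change of 1.61 ± 0.19 in Sham offspring stood against 0.43 ± 0.21 in PM offspring, a difference of -1.17 ± 0.26. Saline levels of Ahcy lay around the pseudocount of 0.5, so the size of these values depends on it, as for the low genes below.

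Sham-OVA replicate 5 stood apart in the remaining 5 members. Lrrc43 had 0.764, 1.88, 1.86, 1.67 and 4.82 RPM in Sham-OVA replicates 1 to 5, against 3.36 to 5.57 RPM in Sham (median 4.06), 2.14 to 4.40 RPM in PM (median 3.38) and 4.30, 5.10, 8.10 and 4.54 RPM in PM-OVA. Vwa3a had 1.60, 3.46, 3.11, 5.58 and 15.8 RPM in Sham-OVA, against 9.24 to 14.7 RPM in Sham (median 10.4), 7.27 to 11.3 RPM in PM (median 8.76) and 8.67, 19.0, 11.2 and 7.26 RPM in PM-OVA. In both genes Sham-OVA replicates 1 to 4 lay below every Sham library and replicate 5 lay within or above the Sham range. The log2 fold changes in Sham and PM offspring were -0.93 ± 0.28 and 0.60 ± 0.23 for Lrrc43 and -1.23 ± 0.37 and 0.29 ± 0.24 for Vwa3a, and the differences were 1.54 ± 0.37 and 1.52 ± 0.48.

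Mzf1, Igsf11 and Pdia2 rest on few reads, at most 34 in any library. Mzf1 had 0.278, 0.301, 0, 0.398 and 1.39 RPM in Sham-OVA, against 1.10 to 1.71 RPM in Sham (median 1.33), 0.894 to 1.53 RPM in PM (median 1.10) and 1.48, 2.16, 1.33 and 1.45 RPM in PM-OVA. Igsf11 had 0, 0.0752, 0, 0.159 and 1.75 RPM in Sham-OVA, against 1.15 to 1.84 RPM in Sham (median 1.62), 0.894 to 1.37 RPM in PM (median 1.19) and 0.806, 2.63, 1.86 and 0.908 RPM in PM-OVA. Pdia2 had 0.139, 0.527, 0, 0.319 and 1.31 RPM in Sham-OVA, against 0.581 to 1.33 RPM in Sham (median 0.888), 0.275 to 0.921 RPM in PM (median 0.455) and 1.08, 1.47, 2.39 and 0.726 RPM in PM-OVA. As for Lrrc43 and Vwa3a, 4 of the 5 Sham-OVA libraries of each gene lay below every Sham library and replicate 5 did not. The differences were 1.37 ± 0.33 for Mzf1, 1.70 ± 0.42 for Igsf11 and 1.55 ± 0.38 for Pdia2 with a pseudocount of 0.5, and depended on it: with 0.1 they were 2.21, 3.02 and 2.58, and with 1 they were 0.98, 1.18 and 1.08.

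**Figure D2:**
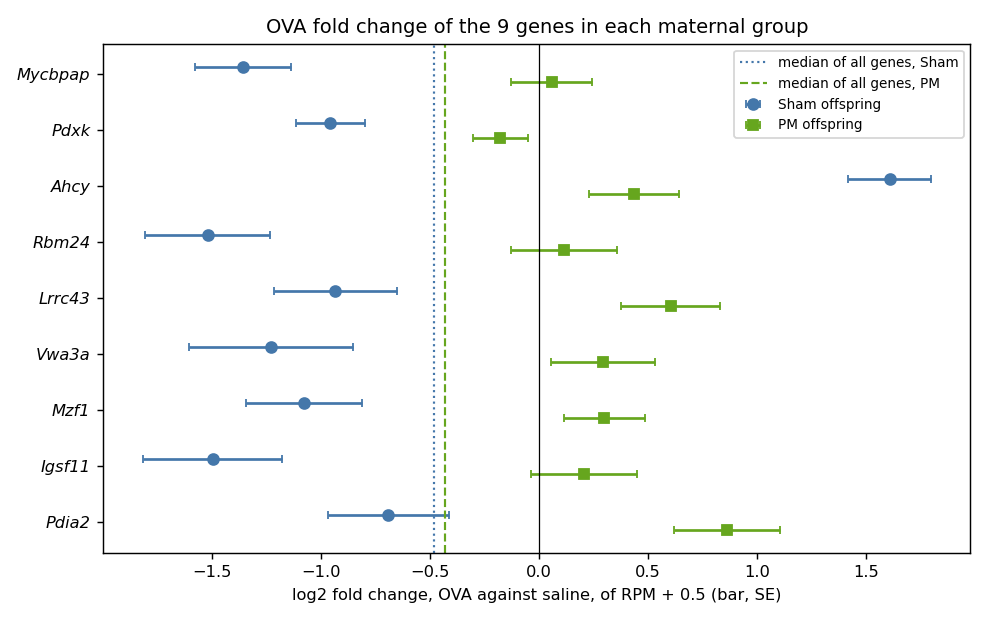
Log2 fold change after OVA challenge, with its SE, of each gene in Sham offspring (circles) and in PM offspring (squares); dotted and dashed lines are the medians of all genes tested in Sham (-0.48) and PM (-0.43) offspring. In Sham offspring 8 of the 9 genes were below 0 and Ahcy was at 1.61, whereas in PM offspring 8 were above 0 and Pdxk was at -0.18.

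The fold changes stand on a background in which most genes moved with OVA challenge. At an adjusted p under 0.05 in limma with Benjamini-Hochberg (BH) adjustment, 68.1% of the genes tested passed in Sham offspring, with 20.6% higher after challenge and 47.5% lower. In PM offspring 65.3% passed, with 20.1% higher and 45.2% lower. The balance of directions depended on the scaling, and in Sham offspring edgeR on the recovered reads called 5584 higher and 5669 lower, DESeq2 5286 and 6391, median-of-ratios scaling 4903 and 6407 and quantile normalisation 5274 and 6041. In PM offspring the same settings called 5120 higher and 5095 lower, 5321 and 5376, 4862 and 6003, and 5168 and 5707. The median log2 fold change of all genes, -0.48 in Sham and -0.43 in PM offspring as deposited, was -0.17 and -0.13 with median-of-ratios scaling and -0.09 and -0.06 with quantile normalisation. Libraries of Sham-OVA lay below all of Sham in 35.0% of the genes tested and above all of Sham in 13.2%, against 3 and 1 of the members, and nothing is read from these counts because the members were chosen on this contrast. PM-OVA lay above all of Sham-OVA in 0.31% of the genes tested and below in 0.298%, against 3 members (Mycbpap, Pdxk and Rbm24) and 1 member (Ahcy). PM-OVA stood clear of PM in 0 members, against 28.6% of genes lower and 13.3% higher, 41.9% together. PM stood clear of Sham in 0 members, against 0.00595% of genes. These comparisons are also part of the contrast that chose the members, so nothing is read from their counts either.

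The contrasts that make up the difference lay on opposite sides of 0 for 8 of the members. Without challenge, PM minus Sham was between -0.48 (Pdia2) and -0.07 (Pdxk) on the log2 scale in all 9, with Ahcy at -0.09 ± 0.15. After challenge, PM-OVA minus Sham-OVA was 1.49 ± 0.43 for Rbm24, 1.39 ± 0.48 for Igsf11 and 1.16 ± 0.32 for Mycbpap, between 0.71 (Pdxk) and 1.27 (Lrrc43) for 5 others, and -1.27 ± 0.25 for Ahcy. All 8 members other than Ahcy were thus lower in PM than in Sham and higher in PM-OVA than in Sham-OVA, by values that chose them and were not tested.

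For the interaction itself limma called 0 of the 16795 genes (0.0%), with 854 (5.08%) at an unadjusted p under 0.05. That number was 1594 by DESeq2 and 1388 by edgeR, and leaving out a library raised it to 1965 for Sham-OVA replicate 3, 1477 for PM-OVA replicate 1 and 1409 for PM-OVA replicate 4. DESeq2 on the recovered reads called 2 genes and edgeR 0, and the 2 were Mycbpap and Pdxk. Without Sham-OVA replicate 5 limma called 6 genes, all of them members: Lrrc43, Mzf1, Vwa3a, Mycbpap, Igsf11 and Pdia2, with differences between 1.55 and 2.11. These calls use the contrast that chose the members and are no independent support. The sign of the difference was the same for each member in all 23 fits that left out 1 library, which is likely for genes chosen on it.

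**Figure D3:**
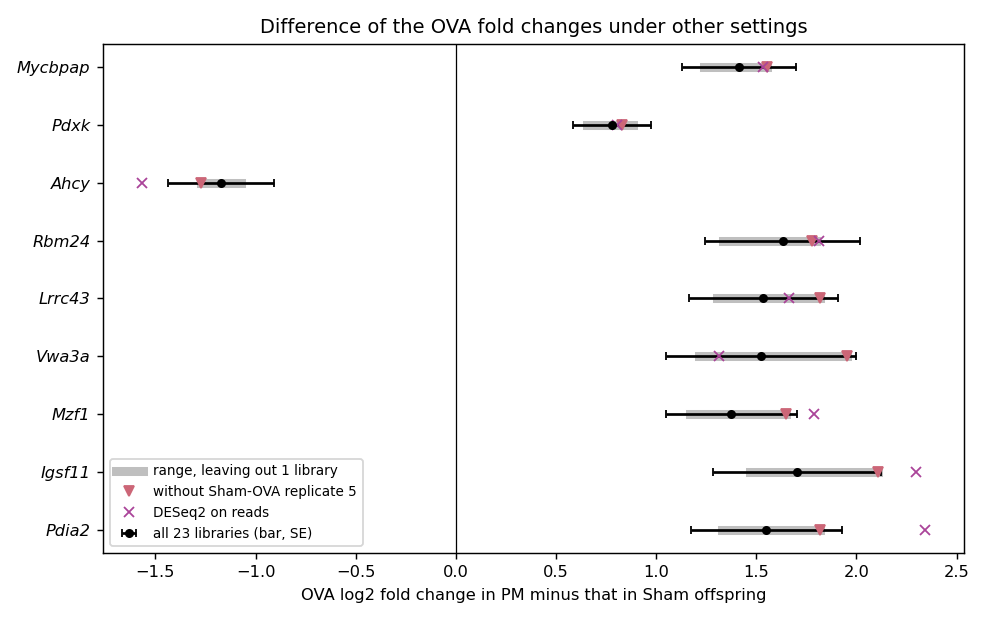
Difference of the OVA log2 fold changes, PM minus Sham offspring, for each gene, with all 23 libraries (black, bar SE), over the fits that leave out 1 library each (grey), without Sham-OVA replicate 5 (triangles) and by DESeq2 (crosses). Values for Ahcy are below 0 and those of the other 8 genes above 0 in all of these settings, with Vwa3a ranging from 1.21 to 1.95 and Igsf11 from 1.47 to 2.11 as single libraries were left out.

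The mean effect of maternal exposure was taken as PM minus Sham averaged over saline (weight 61.2%) and OVA (38.8%) libraries. limma called 0 of the 16795 genes (0.0%), with 263 (1.57%) at an unadjusted p under 0.05, and DESeq2 and edgeR called 0. For the members it is a description with no test, because it is built from the same contrasts that chose them and the OVA groups varied more than the saline groups. The log2 difference was -0.55 ± 0.13 (SE) for Ahcy, 0.50 ± 0.19 for Rbm24, 0.40 ± 0.16 for Mzf1, 0.30 ± 0.14 for Mycbpap and 0.23 ± 0.10 for Pdxk, and between 0.12 and 0.34 for the other 4.

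Levels of most of the members other than Ahcy moved together within groups, a pattern from which the group means had been removed. Over all 23 libraries the deviations of log2 level from the group mean correlated positively in 27 of the 28 pairs that leave out Ahcy, with a median Pearson r of 0.63, most closely between Vwa3a and Igsf11 (r = 0.84). Pdxk followed the others least. Its r was -0.04 with Rbm24, the 1 pair below 0, 0.06 with Lrrc43 and 0.10 with Mycbpap, and at most 0.45, with Mzf1. Mzf1 and Rbm24 were also only weakly related (r = 0.12). Ahcy was negatively correlated with all 8. These values are a description, since the genes of a library share its depth and its mix of cells.

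Of the 25 genes with the most similar deviations, 3 for each member, 4 are on the motile cilium list described next. For Lrrc43 they were Dnah9 (r = 0.82), Dnah10 (0.82) and Kif27 (0.79), of which the first 2 encode axonemal dynein heavy chains. For Rbm24 they were Ttc34 (0.88), Dnah5 (0.86), another dynein heavy chain, and Eno4 (0.86). Vwa3a followed Elmod1 (0.92), Nme9 (0.92) and the adenylate kinase gene Ak7 (0.92), and Igsf11 followed Nme9 (0.85), Elmod1 (0.84) and Vwa3a (0.84). Mzf1 was closest to Nek10 (0.85), Nphp4 (0.84) and Ift88 (0.83), the last a component of intraflagellar transport. Mycbpap was closest to Acox2 (0.92), Bbof1 (0.90) and Cfap61 (0.90), and Pdia2 to Hydin (0.77), a protein of the central pair, Angpt4 (0.76) and Steap1 (0.76). The other 2 differed, with Pdxk closest to Zbtb8b (0.88), Ctdspl (0.87) and Rasd2 (0.87), and Ahcy to Acat3 (0.66), Rnaseh2a (0.61) and I730030J21Rik (0.60).

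Genes of the motile cilium gave differences of the sign of the 8 members. In Sham offspring, 25 of the 44 listed genes fell and 1 rose after OVA challenge (59.1% called, against 68.1% of all genes tested), with a median log2 fold change of -0.76 against -0.48 over all genes. In PM offspring 5 fell and 14 rose (43.2% called, against 65.3%), with a median of 0.30 against -0.43. Dynlrb2, a dynein light chain gene, was the highest in both, at 1.22 ± 0.34 in Sham (adjusted p = 0.00508, limma with BH adjustment) and 2.02 ± 0.30 in PM offspring (adjusted p = 1.77e-04), and Hydin the lowest, at -2.86 ± 0.44 (adjusted p = 5.21e-05) and -1.73 ± 0.51 (adjusted p = 0.00942). The split depended on scaling: median-of-ratios scaling gave 4 rising and 17 falling in Sham and 24 rising and 3 falling in PM offspring, and quantile normalisation gave 5 and 15, and 27 and 3. Without PM-OVA replicate 2 it was 8 rising and 9 falling in PM offspring.

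The difference of the fold changes was above 0 in 44 of the 44 motile cilium genes, with a median of 0.99 against -0.01 over all genes. None was called in the interaction by limma, and 28 had an unadjusted p under 0.05, against 5.08% of all genes tested, or 16 without PM-OVA replicate 2. Over the fits that left out 1 library, 42 to 44 differences were above 0 and the median was 0.72 to 1.22. None of the 9 members is on the list, which does not tell whether a member acts in cilia, and all 8 multiciliated cell markers are on it. Genes of 1 cell type vary together and are not replicates, and in whole lung fewer cells of a type and less RNA per cell cannot be told apart.

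The score of the 8 multiciliated markers, their mean log2(RPM + 0.5), had its highest mean in PM-OVA, although the libraries of the groups overlapped. Saline libraries had 4.65 ± 0.34 (SD, n = 7) if Sham and 4.56 ± 0.11 (n = 7) if PM. Challenged libraries had 4.65 ± 0.75 (n = 5) if Sham-OVA and 5.49 ± 0.65 (n = 4) if PM-OVA, and all 8 markers had a higher mean in PM-OVA than in Sham-OVA. Summed, the markers reached 467 to 855 RPM in Sham and 431 to 702 RPM in PM libraries, then 332 to 845 RPM in Sham-OVA and 516 to 1199 RPM in PM-OVA libraries, and none of the 8 was listed at 0 in any library. The score changed by -0.0035 after challenge in Sham and by 0.93 in PM offspring. The first value is a mean over markers that moved both ways, since 4 of the 8 were lower in Sham-OVA than in Sham. In PM-OVA 0 of the 8 were lower than in PM. After each library's score was subtracted, the difference of the fold changes was 0.48 for Mycbpap, 0.70 for Rbm24, 0.60 for Lrrc43, 0.59 for Vwa3a, 0.44 for Mzf1, 0.77 for Igsf11, 0.61 for Pdia2, -0.16 for Pdxk and -2.11 for Ahcy. This step lowers every gene by the same 0.94 and says nothing about the relation of a member to the score. The part of the multiciliated cells in the members' values was not tested. Scores of other cell types changed as well, by 0.77 in Sham and 0.96 in PM offspring for secretory cells. The values were 1.68 and 1.44 for leukocytes, 0.83 and 1.05 for red blood cells and -0.88 and -0.80 for endothelium. For AT1 cells of the alveoli they were -0.62 and -0.58, and for AT2 cells -0.13 and -0.27. Skeletal muscle changed by 0.06 in both, and its Myh4 was listed at 0 in every library. Except for red blood cells, these values too are means over markers that moved both ways. Of the 6 secretory markers, 3 were lower in Sham-OVA than in Sham and 4 lower in PM-OVA than in PM, although the score rose. Only 3 of the 8 AT2 markers were lower after challenge in each maternal group, although the score fell.

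**Figure D4:**
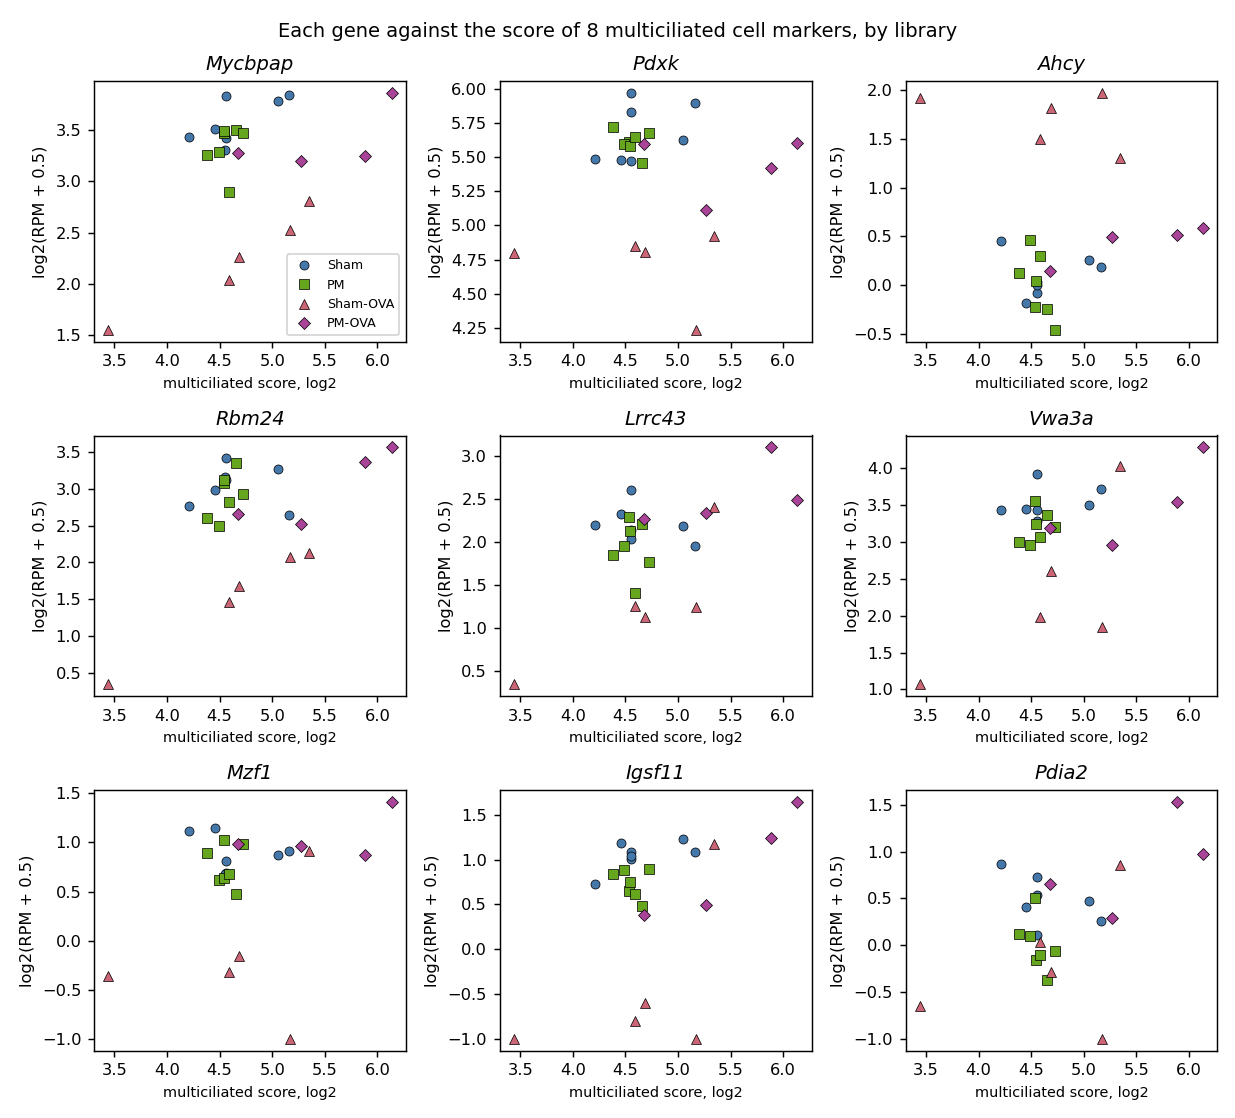
Level of each gene, log2(RPM + 0.5), against the score of 8 multiciliated cell markers in the same library; each point is a library, with Sham circles, PM squares, Sham-OVA triangles and PM-OVA diamonds. Sham-OVA replicate 1 has the lowest score of all libraries and low Mycbpap, Rbm24, Lrrc43 and Vwa3a, while Ahcy is high in Sham-OVA at every score.

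Within the Sham-OVA group the score and the level of several members went together, since replicate 1, with the lowest summed markers (332 RPM), had the lowest Mycbpap, Rbm24, Lrrc43 and Vwa3a, and replicate 5 (786 RPM) the highest of these 4. Replicate 3, with 845 RPM of the markers, was an exception in part. Its Mycbpap (5.28 RPM) and Rbm24 (3.73 RPM) were below those of replicate 5 alone, whereas it had 3.11 RPM of Vwa3a. It was listed at 0 for Mzf1, Igsf11 and Pdia2, in a library where 1 read was worth 0.311 RPM. Over all 23 libraries the deviations from group means correlated with the score at r = 0.77 for Mycbpap and Rbm24, 0.68 for Vwa3a, 0.63 for Igsf11, 0.56 for Lrrc43, 0.28 for Pdia2, 0.21 for Mzf1, -0.0017 for Pdxk and -0.05 for Ahcy, as a description. These values differed between saline and OVA libraries, with Rbm24 at 0.11 and 0.95 and Lrrc43 at -0.24 and 0.78. Relations within the saline groups were tested apart from the challenge, although the saline spread enters the interaction p that chose the members. Of 36 correlations of a member with the multiciliated or a cardiac muscle score within Sham or within PM, 0 passed at a BH adjusted p under 0.05 in an exact permutation test, and with 7 libraries a weak relation would not be detected.

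The closest to passing was Rbm24 with the score of 13 cardiac muscle markers in Sham (n = 7), the only one of the 36 at an unadjusted p under 0.05. Pearson's r was 0.91 (p = 0.00238 and BH adjusted p = 0.0857, by a two-sided exact permutation test) and Spearman's rho 0.86 (exact permutation p = 0.0238, adjusted p = 0.653), and r was 0.69 without the 2 libraries farthest from the median score. In PM r was 0.55 (exact permutation p = 0.200, adjusted p = 0.671), and -0.22 without 2 libraries. The cardiac score was 3.36 ± 0.53 in Sham against 2.22 ± 1.07 in Sham-OVA, and 3.47 ± 0.45 in PM against 2.57 ± 0.18 in PM-OVA. Sham-OVA replicate 3, the shallowest library, scored 4.07, above every Sham library (at most 3.76). The other Sham-OVA libraries scored 1.40 to 2.12. In some library 3 of the 13 markers were listed at 0, and the part of the cardiac score in the Rbm24 levels was not tested.

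The lists of the families and pathways of 6 members leave out the members themselves. No gene on them was called in the interaction by limma, with between 0 and 3 genes of each list at an unadjusted p under 0.05. The counts of rising and falling genes stand against 20.6% and 47.5% of all genes tested in Sham and 20.1% and 45.2% in PM offspring. That balance depended on the scaling. Of 21 tested genes of the methionine cycle, to which Ahcy belongs, 5 rose and 11 fell in each maternal group, among them Ada, which removes adenosine (2.94 ± 0.18 in Sham and 2.59 ± 0.25 in PM offspring), and Mat2a, which makes the methyl donor (-1.80 ± 0.29 and -1.81 ± 0.32). The median difference of the fold changes over the list was -0.01, against -0.01 over all genes. Of the 5 genes of vitamin B6 metabolism, around Pdxk, 2 rose and 2 fell in each group, with Pdxp at 1.19 ± 0.21 and 0.69 ± 0.26 and Aox1 at -2.90 ± 0.28 and -2.38 ± 0.40 in Sham and PM offspring.

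Of 19 protein disulphide isomerase genes, the family of Pdia2, 9 rose and 2 fell in Sham and 9 rose and 3 fell in PM offspring. Agr2, which folds mucins, was the highest at 3.78 ± 0.37 and 4.69 ± 0.33, and Tmx4 the lowest, at -2.20 ± 0.40 in PM offspring. Of 24 SCAN domain zinc finger genes, the family of Mzf1, 2 rose and 19 fell in each group, with Scand1 at 2.66 ± 0.30 and 2.68 ± 0.41 and Zscan25 at -3.48 ± 0.26 and -2.95 ± 0.50. Of 17 RNA-binding splicing regulators, 2 rose and 10 fell in Sham and 1 rose and 11 fell in PM offspring, with Rbm38 at 2.08 ± 0.25 and 1.68 ± 0.32 and Qk at -2.93 ± 0.44 and -2.94 ± 0.48. Of 16 genes of the CTX family, to which Igsf11 belongs, and its partner VISTA, 3 rose and 7 fell in Sham and 3 rose and 4 fell in PM offspring, with Pdcd1, the inhibitory receptor PD-1, which the list holds beside VISTA, highest at 3.24 ± 0.28 and 2.95 ± 0.24, Jam2 at -2.04 ± 0.21 and -1.78 ± 0.25, and Clmp at -1.13 ± 0.33 and -1.99 ± 0.47. Each named value has an adjusted p under 0.05 in limma. Here too the counts stand against 20.6% of all genes tested rising and 47.5% falling in Sham, and 20.1% and 45.2% in PM offspring. The median log2 fold changes in Sham and PM offspring, against -0.48 and -0.43 over all genes, were -0.54 and -0.61 for the methionine cycle, 0.02 and -0.08 for vitamin B6 metabolism, 0.35 and 0.48 for the isomerases, -1.25 and -1.29 for the SCAN genes, -1.0 and -0.70 for the splicing regulators and -0.29 and -0.21 for the CTX list.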

How the data were processed

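Lung RNA-Seq libraries of 23 offspring were placed in 4 groups by the maternal exposure and challenge named in the labels. According to the paper's methods, the authors used Trimmomatic for trimming, Bowtie2 for alignment to GRCm38 and SeqMonk for quantification of single-end reads. The submitters' processing notes name mm10 and bcl2fastq. The values deposited by the authors are RPM, in a table named after RPKM: in each library no less than 99.99% of values came out as whole multiples of 1 read (tolerance 0.02 reads) whatever the gene length, and these multiples were taken as reads. Depth ranged from 2298645 to 17393579 reads on genes, which limits low genes in the OVA libraries. RPM refers to a total that also holds reads outside genes: reads on genes made up 83.0% to 92.4% of it in saline and 71.4% to 85.7% in OVA libraries, and the part of this in the OVA fold changes was not tested beyond the other scalings.

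A gene was tested if 4 or more libraries had 0.5 RPM or more of it, and limma 3.58.1 (R 4.3.3) was fitted on log2(RPM + 0.5) with a trend and BH adjustment, on 2 groups for each challenge and on 4 groups for the interaction and the weighted maternal contrast. Where fold changes of 2-group fits and their difference from the 4-group fit are set side by side, their SEs come from different fits. Alternatives were other pseudocounts, filters and scalings, a replicate block, array weights, a joint fit, a stricter threshold, leaving out each library, and the count models of edgeR 4.0.16 and DESeq2 1.42.0 fitted to those reads. The fits were tested on simulated counts. Correlations used exact permutation tests in SciPy 1.17.1. The members and gene lists were chosen with earlier results of these data known. Named genes were the members, the highest and lowest gene of each list after challenge in each maternal group, genes called in the interaction, and the 3 genes most like each member. A gene that this rule names is not reported here. Scores of 9 marker lists were computed, and those of multiciliated cells and cardiac muscle were compared with members. Replicate numbers were not taken as pairs: correlations of same-numbered libraries ranged from -0.31 to 0.62. The library names carry other numbers in the OVA groups, and pairing by those was not tested. Transcript copies were sought with blastn at 94% identity over 300 bases. Figures were drawn with matplotlib 3.10.9.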

Additional observations from a re-analysis of the deposited data

Results flagged for a closer look

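Of 36 groups tested for a sample far from the others (9 genes in 4 groups), 6 had one, where chance flags about 1 in 20. Sham-OVA replicate 5 was high for 4 genes: Lrrc43 at 4.82 RPM against 0.764 to 1.88 RPM in the other 4 libraries, Vwa3a at 15.8 RPM against 1.60 to 5.58 RPM, Mzf1 at 1.39 RPM against 0 to 0.398 RPM and Igsf11 at 1.75 RPM against 0 to 0.159 RPM. These 4 genes vary together, so the flags are not independent. Sham-OVA replicate 3, the shallowest library, was low for Pdxk at 18.3 RPM against 27.4 to 29.8 RPM. PM-OVA replicate 2 was high for Mycbpap at 14.1 RPM against 8.72 to 9.20 RPM, and it also had the highest score of multiciliated markers (6.14).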

How the results depend on the processing

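The difference of the fold changes kept its sign for all 9 members in every alternative run, with 281 of the 297 values within the spread between replicates of the main one. The members were chosen on this difference in the same libraries, so a kept sign is likely and is no independent support. The fold change in PM offspring changed sign for Mycbpap with a replicate block (-0.040), with array weights (-0.058) and without PM replicate 6 (-0.015) or PM-OVA replicate 2 (range leaving out 1 library -0.10 to 0.12), for Rbm24 (range -0.064 to 0.28) and Igsf11 (range -0.028 to 0.39) without PM-OVA replicate 2, and for Pdxk with median-of-ratios scaling (0.18), quantile normalisation (0.21), DESeq2 (0.21) and edgeR (0.21). No fold change in Sham offspring changed sign.

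Genes called in the interaction numbered 0 in the main fit, 1 without a filter (Gm10616), 2 by DESeq2, 4616 with array weights, a fit that gave a convergence warning and moved the median difference of all genes to -0.32, and 0 to 6 leaving out 1 library (6 without Sham-OVA replicate 5, 1, Mcpt2, without PM-OVA replicate 2). The mean maternal effect gave 2361 calls with array weights and 0 to 0 leaving out 1 library. With the stricter threshold (adjusted p under 0.000001, absolute log2 fold change over 1), 758 genes were called in Sham and 48 in PM offspring, against 4814 and 2817 by DESeq2, 4437 and 2516 with array weights, 3085 in Sham without Sham-OVA replicate 3 and 504 in PM offspring without PM-OVA replicate 1. The size of the gap between the maternal groups is thus not stable. Sham offspring had more calls in each of these settings, from groups of unlike size. At an adjusted p under 0.05, leaving out 1 library gave 10914 to 12146 calls in Sham and 9592 to 12083 in PM offspring. There the order was not stable, with 11431 calls in Sham and 12083 in PM offspring without PM-OVA replicate 1. Same-numbered libraries were not treated as pairs in the main fits. The replicate block gave 10042 calls in Sham and 8007 in PM offspring, 0 in the interaction and 0 for the maternal effect. The cause of these changes was not tested. A pseudocount of 1 left 0 of the 36 correlations past the threshold, and without the 2 farthest libraries each is a value with no test. The values for Mzf1, Igsf11, Pdia2 and Ahcy are limited by read number.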

Other observations

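The 3 genes listed as most like Ahcy also had their highest group mean in Sham-OVA. The share of all genes with this order was not computed, and 20.6% of the genes tested rose after challenge in Sham offspring. Acat3, an acetyl-CoA acetyltransferase gene, had a mean of 1.02 ± 0.36 RPM in the 5 Sham-OVA libraries, 0.268 ± 0.098 RPM in the 4 PM-OVA libraries and 0.211 ± 0.155 RPM (SD) in the 7 Sham libraries. In PM it reached at most 0.329 RPM, with 2 of the 7 libraries listed at 0, and it rested on at most 16 reads in any library. Rnaseh2a, a subunit of the ribonuclease that removes ribonucleotides from DNA, had 5.00 ± 0.85 RPM in Sham, 5.56 ± 0.59 RPM in PM, 9.84 ± 1.18 RPM in Sham-OVA and 7.57 ± 1.73 RPM in PM-OVA. I730030J21Rik had 0.727 ± 0.252 RPM in Sham, 0.554 ± 0.206 RPM in PM, 3.25 ± 1.15 RPM in Sham-OVA and 1.96 ± 0.34 RPM in PM-OVA. They were chosen for the likeness of their deviations from group means, not for these means.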
